A study of Mus musculus with 4 samples.

Results

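The proteasome genes of mouse pancreas were followed here across 4 Affymetrix arrays, 2 from wild-type mice and 2 from mice null for Ifrd1, a gene for a transcriptional co-regulator. Members were all genes whose symbol in the array annotation begins with Psma, Psmb, Psmc, Psmd, Psme or Psmg on a row that carries 1 symbol, which gave 48 of the 22180 genes measured. Of these, 46 encode parts, activators or assembly factors of the proteasome: 15 of the core particle, 3 of the immunoproteasome, 17 of the regulatory particle, 4 activators and 7 assembly chaperones. The other 2, Psmc3ip and Psme3ip1, share only the name prefix and are counted apart. Psma4, an alpha subunit, is not a member because its rows carry several symbols. All mice were 8 weeks old, and all, wild type included, had received cerulein, a cholecystokinin analog that over-stimulates acinar cells and causes pancreatitis, intraperitoneally at 100 µg/kg, 6 times a day on alternate days. The samples were adult pancreas at 5 days of this course, which the labels describe as a way to induce proliferation. The labels give the genotype only as wild type or IFRD1 null, without the allele, the sex, the litter or whether animals were pooled, and they call the samples biological replicates. Uninjured pancreas is not analysed here.

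The proteasome is the protease complex that degrades proteins tagged with ubiquitin. Its core particle is a barrel of alpha subunits at the ends and beta subunits in the middle, of which Psmb5, Psmb6 and Psmb7 carry the active sites. The regulatory particle binds the ends of the barrel, captures ubiquitinated proteins, removes the ubiquitin and unfolds them with a ring of ATPases. Interferon gamma induces Psmb8, Psmb9 and Psmb10, which take the places of Psmb5, Psmb6 and Psmb7 in newly built particles (the immunoproteasome), and also induces the activators Psme1 and Psme2. Cells of the immune system carry the immunoproteasome without such a stimulus. Acinar cells make large amounts of secretory protein, and misfolded protein from their endoplasmic reticulum is degraded by the proteasome.

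The upstream sequences of 4 members are shown because the results turn on them: Psme2 and Psmd2, which had the smallest unadjusted p of the higher and of the lower members, and Psmb8 with Psmb5, the induced and the constitutive form of the same active-site subunit. Each line gives the 250 bases before the RefSeq gene start (GRCm38.p6), 5′ to 3′ on the gene's strand, with motif matches in capitals. They lie at chr14:55591102-55591351 (Psme2, minus strand), chr16:20651402-20651651 (Psmd2, plus strand), chr17:34197945-34198194 (Psmb8, plus strand) and chr14:54617996-54618245 (Psmb5, minus strand).
Psme2: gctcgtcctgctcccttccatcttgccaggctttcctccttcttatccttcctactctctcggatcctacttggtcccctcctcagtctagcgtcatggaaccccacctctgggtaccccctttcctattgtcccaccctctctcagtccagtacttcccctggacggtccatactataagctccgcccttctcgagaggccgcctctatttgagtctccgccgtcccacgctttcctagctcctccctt
Psmd2: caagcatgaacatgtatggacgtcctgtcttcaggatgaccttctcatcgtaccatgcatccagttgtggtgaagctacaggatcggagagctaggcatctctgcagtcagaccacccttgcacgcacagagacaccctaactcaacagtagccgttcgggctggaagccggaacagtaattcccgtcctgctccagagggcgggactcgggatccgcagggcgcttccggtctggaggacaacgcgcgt
Psmb8: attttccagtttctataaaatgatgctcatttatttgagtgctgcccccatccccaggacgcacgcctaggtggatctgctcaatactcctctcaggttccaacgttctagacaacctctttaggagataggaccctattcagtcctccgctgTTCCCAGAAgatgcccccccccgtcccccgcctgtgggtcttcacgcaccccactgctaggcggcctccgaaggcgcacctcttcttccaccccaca
Psmb5: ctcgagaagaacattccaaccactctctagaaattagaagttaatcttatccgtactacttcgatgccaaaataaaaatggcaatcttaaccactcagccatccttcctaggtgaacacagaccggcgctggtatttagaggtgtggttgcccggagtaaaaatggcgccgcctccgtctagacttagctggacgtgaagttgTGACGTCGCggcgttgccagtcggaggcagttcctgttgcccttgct
The capitals in Psmb8 mark a match to TTCNNNGAA, the letters bound by STAT factors of interferon gamma signalling, which begins 97 bases before the start. The capitals in Psmb5 mark a match to TGACNNNGC, the core of the antioxidant response element bound by Nfe2l1 and Nfe2l2, which begins 47 bases before the start. Psme2 and Psmd2 held no match to either or to the core of the interferon-stimulated response element in this window. Both strands were searched, and overlapping matches were counted.

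RefSeq gave such a window for 38 of the 46 proteasome genes. The TTCNNNGAA letters were found before 2 of the 38 genes, Psmb8 and Psmg1 (5.26%), against 7.02% of all 32851 promoter windows of that length. The TGACNNNGC letters were found before 5 genes, Psmb5, Psmb6, Psmc6, Psmd9 and Psmd12 (13.2% against 10.2%). The core of the interferon-stimulated response element was found before 3 genes, Psmb3, Psmd4 and Psmd9 (7.89% against 2.98%). A match describes letters only and was not tested as a binding site.

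The 4 arrays matched their genotype labels: Ifrd1 was at 9.04 and 9.07 in wild type and at 6.99 and 7.09 in the null on the log2 scale. The tissue label was borne out by the acinar markers, whose median level of 13.0 was near the top of the scale, with Ctrb1, a chymotrypsinogen, at 13.9 on every array. Some differences between arrays touch all results below. Xist was at 2.56 and 3.54 in wild type and at 10.2 and 9.58 in the null, and the Y-linked Uty at 6.41 and 6.40 against 2.25 and 2.36, so genotype and the sex read from these genes cannot be told apart. Wild type 1 was high in some of the 8 intestinal markers measured. Muc13 (8.70 against 3.68 to 3.80 elsewhere), Lgals4, Agr2 and Cdh17 stood out, and Vil1 and Slc5a1 were highest there by less. Fabp2 was nearly level (2.999 against 2.83 to 2.98), and Sis was lowest there (2.28 against 2.35 to 2.48). Ifrd1 null 1 stood above and Ifrd1 null 2 below wild type in B and plasma cell markers (medians 1.11 and -0.62 against the wild-type mean) and in adipocyte markers (0.69 and -0.61). In whole tissue, fewer cells of a type and less RNA per cell cannot be told apart.

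None of the 48 members passed the limma threshold of adjusted p under 0.05 (0 genes, lowest adjusted p = 0.721), where 1 of all 22180 genes did (0.00451%). That gene was the Y-linked Uty (limma adjusted p = 0.0206). Ifrd1 itself, with a difference of -2.02, did not pass (limma adjusted p = 0.139). The threshold therefore cannot decide on differences as small as those of the members. At unadjusted p under 0.05 there was 1 member, Psme2, higher in the null, against 3.27% of all genes higher, 3.63% lower and 6.91% in either direction. Among the 46 proteasome genes, differences between genotypes (Ifrd1 null minus wild type, log2) ran from -0.40 to 0.37, and 23 of them were smaller than 0.1. Their SE lay between 0.10 and 0.23. The 95% interval of the difference included 0 for 45 of the 46, the exception being Psme2, and lay within -1 to 1 for 45 of the 46, the exception being Psma8. A change of 2-fold in either direction was thus outside the interval of every proteasome gene but Psma8, on the values as deposited. Psma5, Psmb11 and Psmg4 were below the median of every array, where signal above background is not shown. Their intervals therefore cannot speak to such a change.

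Most members stood slightly lower in the null, as did most genes of like brightness. The difference was below 0 for 37 of 46 proteasome genes (80.4%), with a median of -0.07, where 52.7% of all genes were below 0. Members are bright, however, with levels mostly between 6.38 and 7.90 (interquartile range), and of the 3759 genes in that range 74.4% were below 0, with a median of -0.09. The share among members was therefore near that of genes at the same level. The lean of the members towards lower values ended with quantile normalization, where 19 of the proteasome genes were below 0, and with cyclic loess, where 18 were. Both null arrays lay below both wild-type arrays for 14 of 46 (30.4%), against 19.7% of all genes and 34.7% of genes in that level range. Both lay above for 3, which were Psme2, Psmb5 and Psmb11 (6.52%, against 16.1% of all genes and 6.01% of genes in that level range). Psme2 and Psmb11 were dimmer than that range. At levels of 3 to 4 and 4 to 5, where they lay, genes leaned upwards, with 34.0% and 42.1% below 0.

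**Figure D1:**
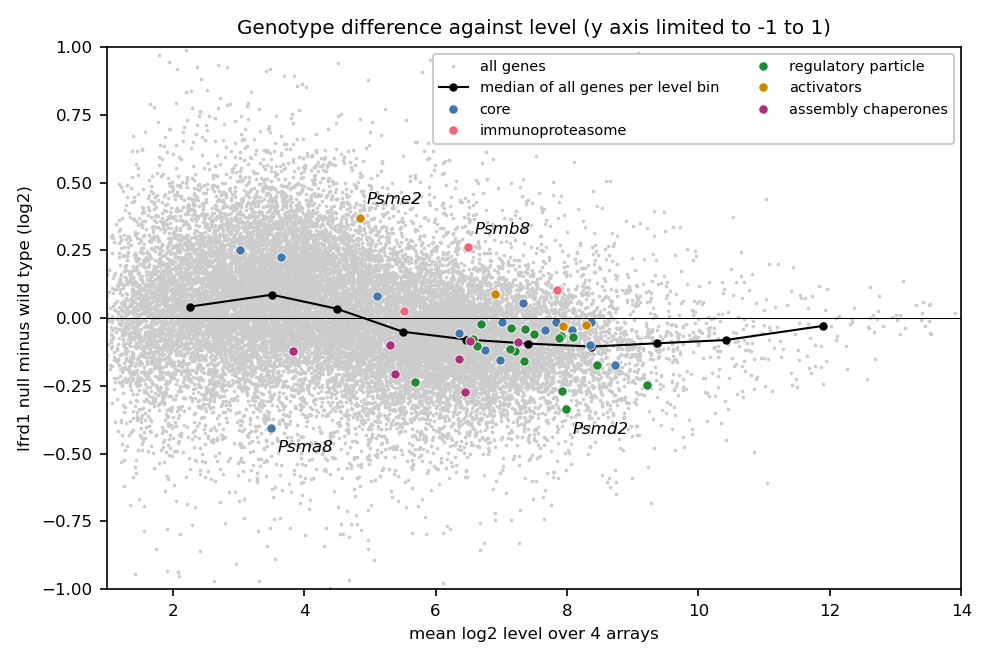
Genotype difference (Ifrd1 null minus wild type, log2, y axis limited to -1 to 1) against mean log2 level over the 4 arrays for all genes (grey) and the 46 proteasome genes (coloured by group). The black line joins the medians of all genes in bins of 1 log2 unit, which pass from 0.09 at levels of 3 to 4 to -0.11 at 8 to 9, and most members lie around it, with Psme2 and Psmb8 above and Psmd2 and Psma8 below.

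In the core particle, 11 of 15 subunits had a difference below 0 and the median was -0.04. The median was above 0 after quantile normalization (0.05) or cyclic loess (0.07), -0.07 without Ifrd1 null 1 and -0.03 without wild type 2. Of the 7 alpha subunits, which form the outer rings and gate the channel, 6 were below 0. Psma3 had the smallest p of those above the array median, at 8.85 and 8.80 in wild type and 8.63 and 8.67 in the null. Both null arrays were below both wild-type arrays, with a difference of -0.17 ± 0.10 (SE, limma adjusted p = 0.761). Psma1 (7.07 and 7.04 against 6.87 and 6.94) and Psma6 (6.78 and 6.83 against 6.67 and 6.70) likewise did not overlap between genotypes. Their differences were -0.15 ± 0.10 and -0.12 ± 0.10 (SE). After quantile normalization or cyclic loess Psma3 was at -0.07, and over all settings the values nearest 0 were -0.06 for Psma1 and -0.03 for Psma6. Psma2 (-0.01 ± 0.10) and Psma7 (-0.01 ± 0.14) were closest to 0 among the alpha subunits.

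Psma8, which replaces an alpha subunit in the testis, and Psma5 were dim, below the median of every array, where signal above background is not shown. Psma8 was at 3.55 and 3.84 in wild type and 3.57 and 3.01 in the null, so its difference of -0.40 ± 0.23 (SE), the lowest among the members, came from Ifrd1 null 2 and was -0.12 without that array. For Psma5 the rows disagreed. The brighter row gave 0.22 and the other -0.59, so no direction is given for this gene.

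Among the 8 beta subunits of the core outside the immunoproteasome, 5 were below 0. The active-site subunits differed little. Psmb5, the chymotrypsin-like subunit, was at 7.30 and 7.31 in wild type and at 7.37 and 7.35 in the null. The groups did not overlap, but the difference was small, 0.05 ± 0.10 (SE), with a 95% interval from -0.21 to 0.32, and 0.15 to 0.16 after quantile normalization or cyclic loess. Psmb6, the caspase-like subunit, was at 7.67 and 7.71 against 7.59 and 7.71, a difference of -0.04 ± 0.11. Psmb7, the trypsin-like subunit, was at 8.05 and 8.14 against 8.07 and 8.02, a difference of -0.04 ± 0.10 (SE). In both, the genotypes overlapped, and the difference was above 0 after either quantile normalization or cyclic loess. Of the structural beta subunits Psmb1 was at -0.10 ± 0.11, Psmb4 at -0.06 ± 0.12, Psmb2 at -0.02 ± 0.10 and Psmb3 at 0.08 ± 0.12. Psmb11, the subunit of the thymic proteasome, was the dimmest member, at 3.15 and 2.66 in wild type and 3.16 and 3.15 in the null. It was below the median of every array, and its difference of 0.25 ± 0.19 (SE) rested on wild type 2, since it was 0.0077 without that array.

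**Figure D2:**
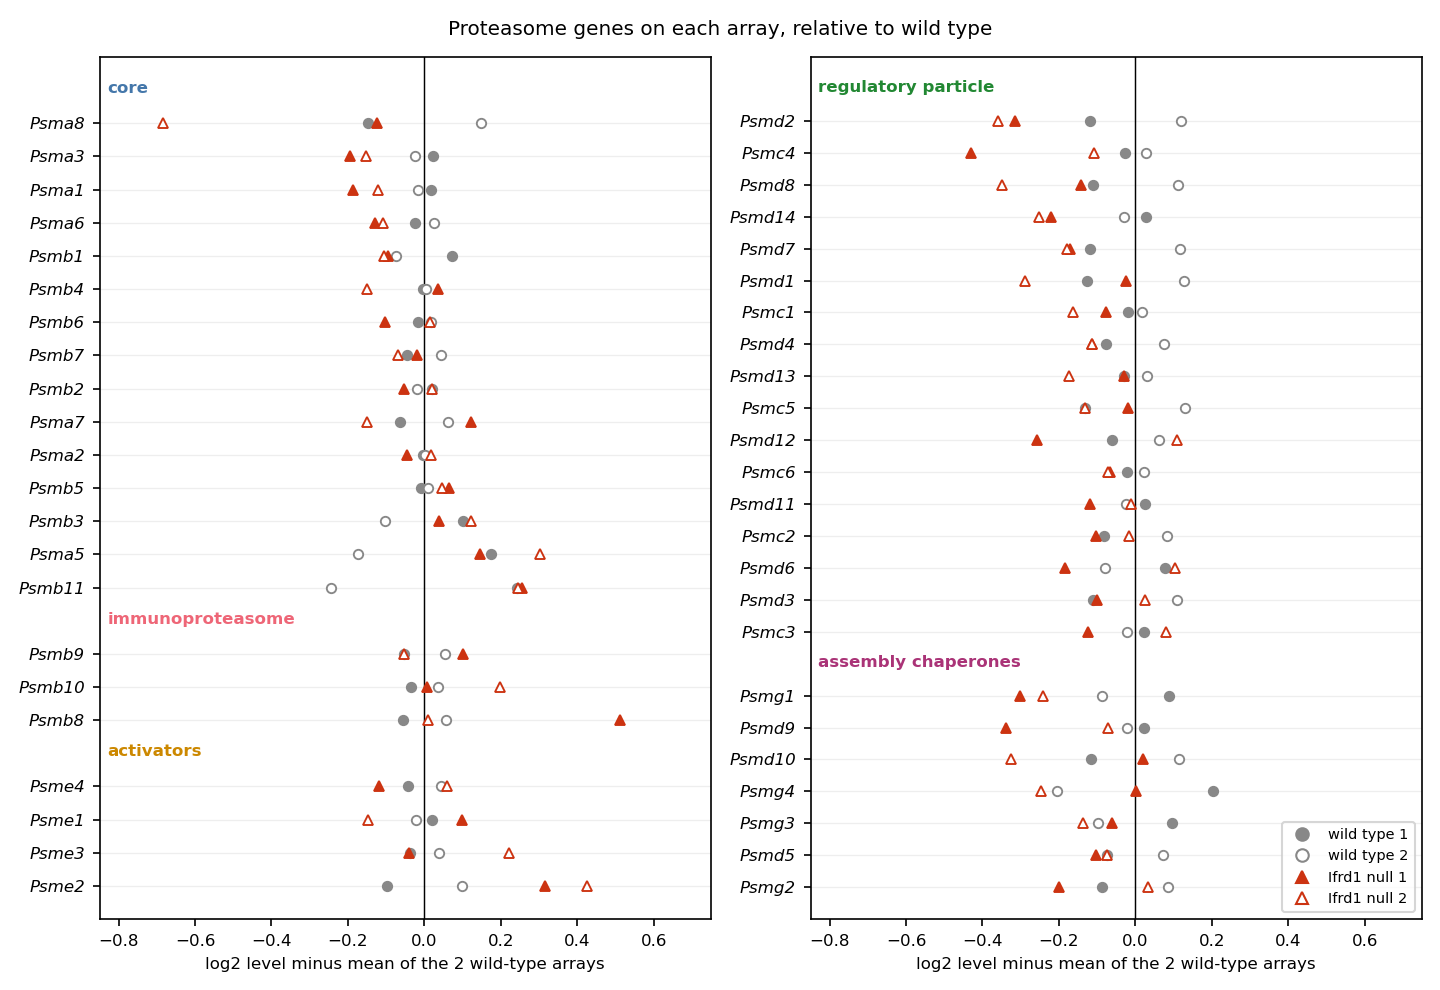
Log2 level of each proteasome gene on each of the 4 arrays, minus the mean of the 2 wild-type arrays (grey circles, wild type; red triangles, Ifrd1 null; filled, replicate 1; open, replicate 2). For 16 of the 46 genes the null arrays lie on opposite sides of the wild-type mean, as for Psmd12 and Psma7, while for Psme2 both lie above and for Psmd2 both below.

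The 3 immunoproteasome subunits had differences above 0, with a median of 0.10 that was 0.0095 without Ifrd1 null 1, 0.19 after quantile normalization and 0.21 after cyclic loess, and in each of the 3 the genotypes overlapped. Psmb8 was at 6.31 and 6.42 in wild type and at 6.87 and 6.37 in the null. Ifrd1 null 1 was high and Ifrd1 null 2 lay between the wild-type arrays. The difference was 0.26 ± 0.20 (SE, limma adjusted p = 0.782), and without Ifrd1 null 1 it was 0.0095. Psmb10 was at 7.77 and 7.84 in wild type and at 7.81 and 8.00 in the null, where the high array was Ifrd1 null 2 instead. Its difference was 0.10 ± 0.12 (SE), and 0.0057 without that array. Psmb9 was at 5.45 and 5.55 in wild type and at 5.60 and 5.45 in the null, a difference of 0.02 ± 0.12 (SE) that turned to -0.05 without Ifrd1 null 1. The 95% intervals ran from -0.27 to 0.79 for Psmb8, from -0.29 to 0.34 for Psmb9 and from -0.22 to 0.42 for Psmb10.

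Each induced subunit was also set against the constitutive subunit whose place it takes, within each array. The log2 ratio of Psmb8 to Psmb5 was 0.45 above the wild-type mean in Ifrd1 null 1 and -0.04 in Ifrd1 null 2, while the wild-type arrays lay at -0.05 and 0.05. For Psmb9 to Psmb6 the null arrays were at 0.21 and -0.07, again with the first array high and the second below both wild-type arrays. For Psmb10 to Psmb7 they were at 0.03 and 0.27, both above the wild-type values of 0.01 and -0.01. The mean changes were 0.21, 0.07 and 0.15 (log2, SD in the null 0.34, 0.19 and 0.17). Exact two-sided permutation tests of the 3 ratios gave p = 0.667, 1 and 0.333 (each 1 after Benjamini-Hochberg adjustment), and 0.333 is the smallest p that 2 arrays against 2 allow.

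Markers of immune cells moved with these values in part. T and NK cell markers were above the wild-type mean on both null arrays (medians 0.48 and 0.17), and 10 of 10 had a difference above 0. Of these, 2, Nkg7 and Lat, were at unadjusted p under 0.05, where 3.27% of all genes were higher. The median level of these markers lay between 4 and 5, where genes leaned upwards in the null. At that level 42.1% of all genes were below 0. The median difference there was 0.035 for all genes, against 0.296 for the markers. Of the 10, 3 lay below the median of every array. Their summed linear signal was 198 (wild type 1), 234 (wild type 2), 327 (Ifrd1 null 1) and 233 (Ifrd1 null 2). Macrophage markers were at 0.07 and -0.45 (summed signal 4528 and 4938, then 5272 and 3393, in the same order). B and plasma cell markers had a summed signal of 302 and 289.8 in the controls and 730 and 188 in the null arrays. Ifrd1 null 1, the array with high Psmb8 and Psmb9, thus also held the most summed signal of T and NK, macrophage and B and plasma cell markers. The same array held the most summed signal of stellate cell and fibroblast markers (6857) and of adipocyte markers (612). The part of these cell types in the Psmb8 and Psmb9 values was not tested.

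**Figure D3:**
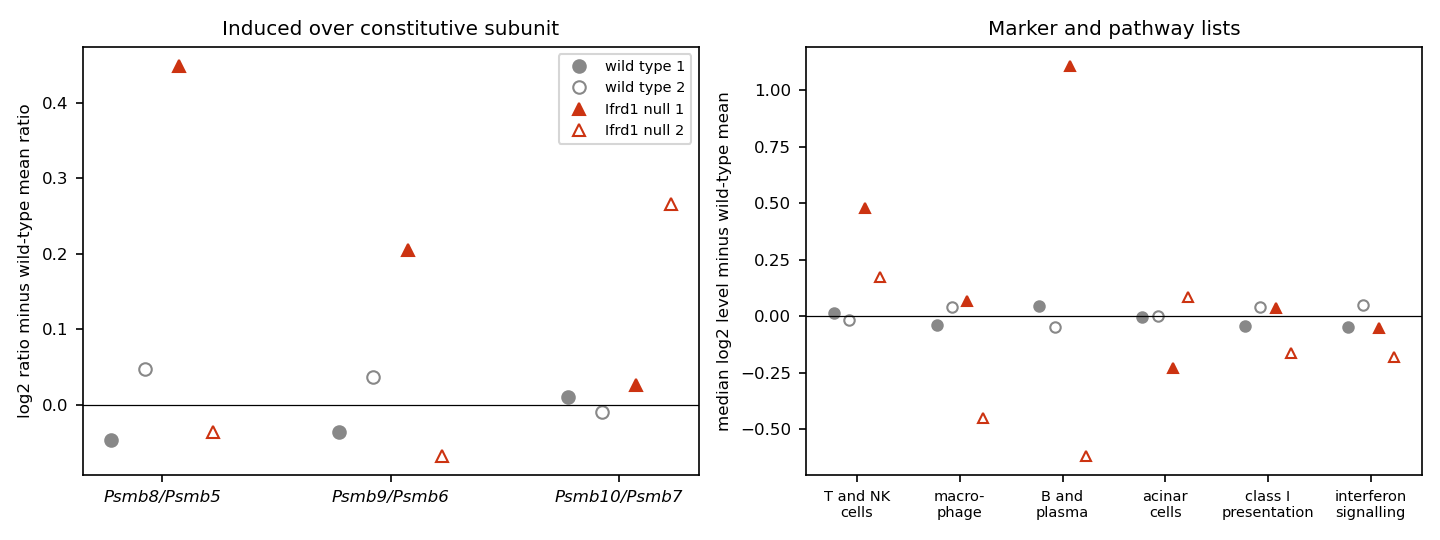
Left, log2 ratio of each induced subunit to its constitutive counterpart on each array, minus the mean of the 2 wild-type arrays. Right, median log2 level of marker and pathway lists on each array, relative to the wild-type mean; Ifrd1 null 1 (filled triangle) is highest for Psmb8 over Psmb5, Psmb9 over Psmb6 and the B and plasma cell markers, and Ifrd1 null 2 (open triangle) for Psmb10 over Psmb7.

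All 17 subunits of the regulatory particle had a difference below 0 as deposited, with a median of -0.10, but 9 of 17 were below 0 with quantile normalization and 9 with cyclic loess, where the medians were -0.02 and -0.01. The median was -0.06 without wild type 2, and 13 to 17 of the 17 were below 0 with each array left out. Array by array, 17 of 17 lay below the wild-type mean in Ifrd1 null 1 and 13 of 17 in Ifrd1 null 2. Both null arrays lay below both wild-type arrays for 8 of 17, against 34.7% of genes in the members' level range. Of the 17, 9 kept a difference below 0 under each of the 3 other normalizations and with each array left out. None passed unadjusted p under 0.05. Marker lists of some other cell types also had medians below the wild-type mean on both null arrays. Duct cell markers had medians of -0.23 and -0.49 (4 of 5 below 0, with Krt19 and Cftr at unadjusted p under 0.05). Endothelial markers had medians of -0.23 and -0.27 (5 of 5 below 0, 4 of them without overlap). Islet markers had medians of -0.48 and -0.18, with 4 of 6 below 0, 3 at unadjusted p under 0.05. The islet hormones Gcg and Sst went the other way, at 0.24 and 0.27 without overlap. Acinar markers had medians of -0.23 in Ifrd1 null 1 and 0.08 in Ifrd1 null 2, with 5 of 7 below 0. Their summed linear signal was 46074 and 46504 in wild type, 40569 in Ifrd1 null 1 and 51899 in Ifrd1 null 2. At levels of 6 to 7 and 7 to 8, 71.3% and 75.2% of all genes were below 0. Of all genes, 3.63% were lower at unadjusted p under 0.05. In the members' level range, both null arrays were below both wild-type arrays for 34.7% of genes. The part of acinar, duct, endothelial and islet cells in the values of the regulatory particle and the assembly chaperones was not tested.

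Psmd2, a large scaffold subunit of the base that docks ubiquitin receptors, was at 8.03 and 8.27 in wild type and at 7.84 and 7.79 in the null. Both null arrays were below both wild-type arrays, by less than the gap between the wild-type arrays at the nearest point. The difference was -0.34 ± 0.13 (SE), or 1.26-fold lower, with a limma adjusted p of 0.722, and ran from -0.46 to -0.22 (without wild type 2) with each array left out in turn. After quantile normalization it was -0.25 and after cyclic loess -0.23. Psmd14, the deubiquitinase that cuts ubiquitin chains from substrates, was at 5.83 and 5.78 against 5.58 and 5.55. Its replicates lay close together, and the difference of -0.24 ± 0.10 (SE, limma adjusted p = 0.727) moved between -0.27 and -0.21 with an array left out. After quantile normalization it was -0.17 and after cyclic loess -0.18. Psmd8, a lid subunit and the brightest member, was at 9.23 and 9.46 against 9.20 and 8.996, a difference of -0.25 ± 0.14 (SE) that was -0.14 without wild type 2, without Ifrd1 null 2 or after cyclic loess. Psmd7, the partner of Psmd14 in the lid, was at 8.42 and 8.65 against 8.37 and 8.36, a difference of -0.17 ± 0.13 (SE) that was -0.06 without wild type 2.

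The ATPases that unfold substrates were lower in value as well, 6 of 6, led by Psmc4. It was at 8.03 and 8.08 in wild type and at 7.63 and 7.95 in the null. Ifrd1 null 1 was far lower than the rest, and the difference of -0.27 ± 0.15 (SE) was -0.11 without it. Psmc1 (-0.12 ± 0.10) and Psmc6 (-0.07 ± 0.10) also had both null arrays below both wild-type arrays, while Psmc5 (-0.08 ± 0.14), Psmc2 (-0.06 ± 0.12) and Psmc3 (-0.02 ± 0.12, SE) overlapped. The ubiquitin receptor Psmd4 was at -0.11 ± 0.11 and did not overlap. Psmd1, the other scaffold of the base, was at -0.16 ± 0.16 and Psmd13 at -0.10 ± 0.11. Over the settings run, the values nearest 0 were -0.01 for Psmd4, -0.02 for Psmd1 and -0.01 for Psmd13. The lid subunits Psmd12 (-0.07 ± 0.16), Psmd11 (-0.07 ± 0.11), Psmd6 (-0.04 ± 0.15) and Psmd3 (-0.04 ± 0.13, SE) were near 0, and their signs turned under at least 1 alternative setting each.

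Among the activators, which open the core channel without the regulatory particle, Psme2 stood apart. It encodes the beta subunit of the interferon-inducible activator and was at 4.57 and 4.76 in wild type and at 4.98 and 5.09 in the null. Both null arrays were above both wild-type arrays, and the groups did not overlap. The difference was 0.37 ± 0.12 (SE), or 1.29-fold higher, with a 95% interval from 0.04 to 0.70. Its unadjusted limma p of 0.0361 ranked 1068 among all genes, and the adjusted p was 0.721. It stayed between 0.27 and 0.47 with each array left out in turn. Its level was close to the array medians of 4.08 to 4.15. Related copies such as Psme2b and a row with several symbols exist, so the probe level is uncertain in that respect. At levels of 4 to 5, where Psme2 lay, the median difference of all genes was 0.035 and 42.1% were below 0.

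Psme1, the alpha subunit with which Psme2 forms a ring, gave no such difference. It was at 8.32 and 8.28 in wild type and at 8.40 and 8.15 in the null, with wild type between the null arrays, a difference of -0.02 ± 0.13 (SE) and an interval from -0.37 to 0.32. Psme3, the nuclear activator, was at 6.82 and 6.90 against 6.82 and 7.08, a difference of 0.09 ± 0.13. Psme4, a nuclear activator linked to histone degradation, was at 7.91 and 7.99 against 7.83 and 8.01, a difference of -0.03 ± 0.12 (SE). For all 3 the genotypes overlapped and the sign turned in at least 1 setting. The median of the 4 activators was 0.03, and 0.14 without Ifrd1 null 1.

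The 7 assembly chaperones all had a difference below 0 as deposited, with a median of -0.12, and 5 of 7 had with either quantile normalization or cyclic loess, where the median was -0.07. With the mean of all rows 6 of 7 were below 0, and with each array left out 5 or 6 of 7. The median was -0.20 without wild type 2. Psmg1, which with Psmg2 guides the alpha ring, was at 6.67 and 6.49 in wild type and at 6.28 and 6.34 in the null. The groups did not overlap, and the difference was -0.27 ± 0.12 (SE, limma adjusted p = 0.727). Psmd9, a chaperone of the ATPase ring, was at 5.50 and 5.46 against 5.14 and 5.41, a difference of -0.21 ± 0.13 that was -0.07 without Ifrd1 null 1. The rows of Psmg2 disagreed, the brighter at -0.08 ± 0.14 (SE) and the other, far dimmer, at 0.30, so no direction is given for it. Psmg3 was at -0.10 ± 0.12, Psmd5 at -0.09 ± 0.11 and Psmg4, below the median of every array, at -0.12 ± 0.19 (SE). Psmd10, also known as gankyrin, is the X-linked member, at 6.31 and 6.54 against 6.45 and 6.10, a difference of -0.15 ± 0.17 (SE) with overlapping genotypes. The 2 genes that share only the prefix were at 0.17 ± 0.15 (Psmc3ip, a recombination factor) and -0.04 ± 0.10 (Psme3ip1).

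**Figure D4:**
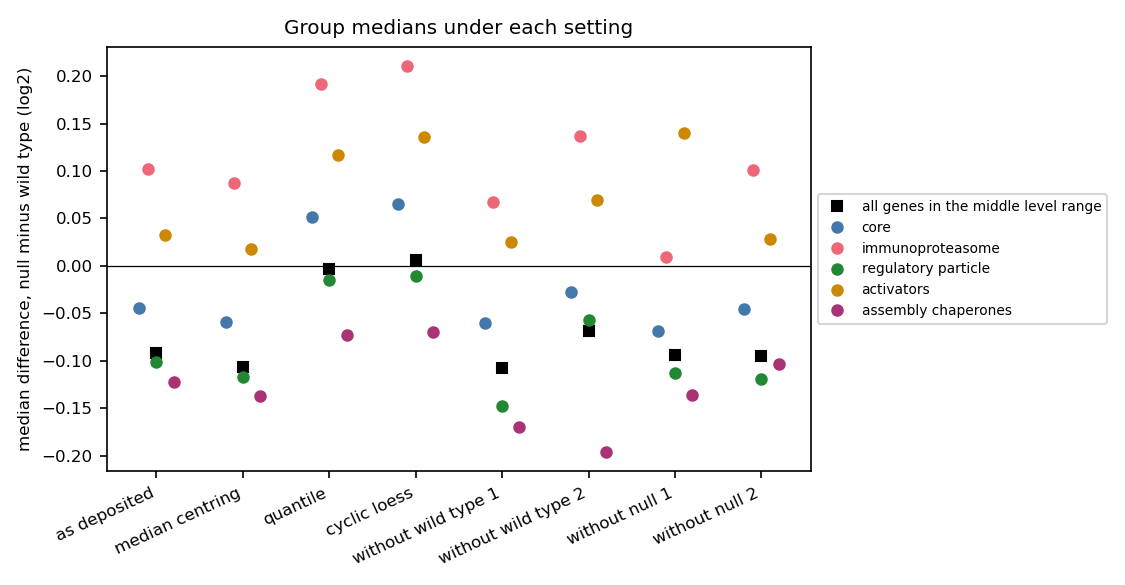
Median genotype difference (log2) of each proteasome group under 8 settings, with all 3759 genes in the members' level range as black squares. The immunoproteasome and activator medians are above the squares in all 8, the regulatory particle median stays within 0.05 of them, and the medians shift up with quantile normalization and cyclic loess.

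Genes that work with the proteasome were read from the same fit. The background for the counts that follow is the 6.91% of all genes at unadjusted p under 0.05 and, at levels of 6 to 9, 71.3% to 76.8% of genes below 0. Of 15 measured genes for proteasome-associated proteins, 10 had a difference below 0 (66.7%, median -0.05), and 1 was at unadjusted p under 0.05, both near or under those shares. This was Zfand5, an activator of the proteasome that binds ubiquitin, at 7.67 and 7.86 in wild type and 7.38 and 7.31 in the null, a difference of -0.42 ± 0.12 (SE, limma adjusted p = 0.721). Usp14, a deubiquitinase bound to Psmd2, was at 6.42 and 6.62 against 6.19 and 6.23, a difference of -0.31 ± 0.12 (SE). After quantile normalization and cyclic loess, Zfand5 was at -0.33 and -0.32, and Usp14 at -0.23 after either. Sem1, a small lid subunit and the brightest of the list, was at 9.005 and 9.05 against 9.19 and 8.86, with wild type between the null arrays and a difference of -0.01 ± 0.15 (SE). Of 7 regulators of proteasome gene expression, 3 were below 0 (median 0.02). Nfe2l2, a transcription factor of the oxidative stress response, was at 8.78 and 8.97 against 8.60 and 8.45, a difference of -0.35 ± 0.13 (SE, unadjusted p = 0.0463, limma adjusted p = 0.721). That difference was -0.26 after quantile normalization and -0.24 after cyclic loess. Nfe2l1, which raises proteasome genes when proteasome activity is short, was at 7.78 and 7.90 against 7.68 and 7.57, a difference of -0.22 ± 0.11 (SE) that was -0.13 after quantile normalization and -0.11 after cyclic loess. For both factors the genotypes did not overlap. Both null arrays were below both wild-type arrays for 19.7% of all genes and for 34.7% in the members' level range. Both factors were named for their small p, which favours such non-overlap. Of the 4 measured genes for ubiquitin activation and the Vcp segregase 3 were below 0. Vcp itself was at 9.27 and 9.31 in wild type and 9.01 and 9.07 in the null, without overlap. The difference of -0.25 ± 0.10 (SE) was -0.15 after cyclic loess and -0.11 with the mean of all rows of Vcp. Its cofactor Nploc4 was at 8.22 and 8.38 against 8.09 and 8.36, a difference of -0.08 ± 0.14 (SE) with overlap.

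The interferon-linked lists were read beside Psme2. Both null arrays lay below both wild-type arrays for 19.7% of all genes, and above for 16.1%. In the members' level range these shares were 34.7% and 6.01%. Most genes named below were picked for small p, which favours such non-overlap. Of 11 measured genes of class I antigen presentation, 9 had a difference below 0 (81.8%, against 76.8% of genes at levels of 8 to 9; median -0.09), and none was at unadjusted p under 0.05 (0 genes). B2m, the light chain of class I molecules, was at 11.7 and 11.9 in wild type and at 12.1 and 11.7 in the null, a difference of 0.12 ± 0.20 (SE). Erap1, which trims peptides after the proteasome, was at 6.93 and 7.01 against 6.86 and 6.49, a difference of -0.29 ± 0.16 (SE) that was -0.11 without Ifrd1 null 2. Tapbpl, a peptide editor of class I molecules, was at 6.32 and 6.31 against 6.06 and 6.15, a difference of -0.20 ± 0.10 (SE), and -0.13 after quantile normalization or cyclic loess. In both the genotypes did not overlap. Tap1, the peptide transporter that lies next to Psmb9, was at 7.21 and 7.33 against 7.31 and 6.71, a difference of -0.26 ± 0.23 (SE, chosen after its values were seen). Of 16 interferon signalling genes, 11 were below 0 (68.8%, against 71.3% of genes at levels of 6 to 7; median -0.11), and 1 was at unadjusted p under 0.05. This was Irf7, at 6.50 and 6.35 in wild type and 7.12 and 7.03 in the null, a difference of 0.65 ± 0.11 (SE, limma adjusted p = 0.721). Its genotypes did not overlap. The interferon gamma receptor subunit Ifngr2 was at 8.20 and 8.32 against 8.05 and 8.01, a difference of -0.23 ± 0.11 (SE), and -0.15 after quantile normalization and -0.12 after cyclic loess. The kinase Jak1 was at 8.84 and 8.92 against 8.77 and 8.77, a difference of -0.11 ± 0.10 (SE) that was near 0 after either. In both the genotypes did not overlap.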

How the data were processed

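Biotin-labelled total RNA was run on Affymetrix arrays (per the labels' protocols). The deposited values (41345 rows) were read as log2 levels. The log base was inferred from their range of 0.218 to 13.9, and background correction, probe summary and normalization are not given in the sources used here. Array medians were 4.08 to 4.15. Rows with 1 symbol in the platform annotation (23521) were used, with the brightest row per gene. No filter on dim rows was applied. All 22180 genes were fitted with limma 3.58.1 (lmFit, eBayes) in R 4.3.3 as Ifrd1 null minus wild type, two-sided, with Benjamini-Hochberg adjustment over all genes; no list was tested. The fit was also run on simulated data with independent normal noise. Those data held no sex difference, no lean with level and no mixture of cell types, so they cannot speak to these. With 2 arrays a group, the number of arrays limits precision. The SE, 95% intervals and limma p-values rest on the spread between these samples, drawn by eBayes towards a spread shared over all genes. Replicates that lie very close therefore do not give a small SE, as for Psmb5 (SD 0.012 in each group, SE 0.10). Members, lists, motifs and level range were chosen with earlier results of these data known. Values per array are given for active-site subunits, activators, the 8 other members of smallest p, the brightest and dimmest members and Ifrd1, and of each pathway list the brightest gene and the 2 of smallest p; further members were chosen after their values were seen. The main fit did not pair the samples by replicate number. Over all genes, the deviations of wild type 1 and Ifrd1 null 1 from their group means had a correlation of -0.0352. This cannot exclude a shared litter or batch. Alternatives were other normalizations, a moderated variance trend, a replicate block, mean rows, a level filter, no X or Y genes, each array left out and, added later, no genes with 0 variance.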

Additional observations from a re-analysis of the deposited data

How the results depend on the processing

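No proteasome member passed the limma threshold in any of the 13 alternative settings run (0 genes in each), and 22 of 46 proteasome genes kept the sign of their difference in the 7 settings that can move the value of every gene (3 normalizations and each array left out); of these Psma5 turned with the mean of its rows. The count of members below 0, 38 of 48 as deposited, was 19 with quantile normalization and 18 with cyclic loess, and 30 to 35 with each array left out. With quantile normalization the medians of core, immunoproteasome, regulatory particle, activators and assembly chaperones were 0.052, 0.19, -0.015, 0.12 and -0.073, and with cyclic loess 0.065, 0.21, -0.011, 0.14 and -0.070. Centring each array moved the core median to -0.059. With each array left out in turn they ran from -0.068 to -0.028, 0.0095 to 0.14, -0.15 to -0.057, 0.025 to 0.14 and -0.20 to -0.10, and the mean change of the 3 induced over constitutive ratios from 0.05 to 0.23 around 0.14. The cause was not tested.

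With the replicate number as a block, 0 members passed; the design is balanced, so a block cannot move a difference. With it 4 genes of the whole table passed, against 1 without it. That count was 5 with arrays centred, 5 with trend and robust eBayes, 4 with cyclic loess, 0 where dim genes were left out, 0 without X and Y genes and 0 to 0 with an array left out. Ifrd1 passed with arrays centred (adjusted p = 0.0349) and with trend and robust eBayes (0.0419).

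Signs of small differences turned. With quantile normalization and with cyclic loess Psmb6 was at 0.046 and 0.063, Psmb7 at 0.052 and 0.065, Psme1 at 0.062 and 0.0855, Psme4 at 0.058 and 0.079 and Sem1 at 0.083 and 0.0986; Jak1 was at 0.0003 with the first and Nploc4 at 0.032 with the second. With each array left out Psmb9 ran from -0.052 to 0.10, Psmb6 from -0.10 to 0.015, Psmb7 from -0.088 to 0.0001, Psme1 from -0.15 to 0.10, Psme3 from -0.0415 to 0.22, Psme4 from -0.12 to 0.058, Sem1 from -0.17 to 0.16, Nploc4 from -0.21 to 0.0555 and B2m from -0.11 to 0.35.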
